A study of Mus musculus with 12 samples.

Results

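The expression of 10 genes of macrophages was followed in whole mouse embryos harvested on embryonic day 12.5: *Marco*, *Csf1r*, *C1qa*, *C1qb*, *C1qc*, *Mrc1*, *Aif1*, *Cd68*, *Timd4* and *Cd5l*. All 10 were listed among the 23420 genes of both count tables. *Marco* was chosen by its much lower counts in *Carm1* null than in wild-type embryos, so its values in that contrast are a description with no test. The other 9 were chosen as markers of macrophages in general or of macrophages of the fetal liver. That choice was made with earlier results of these data known. The 12 libraries, 1 per embryo, fell into 4 groups of 3. In the *Carm1* line, labelled C57BL/6, embryos homozygous for the targeted null allele *Carm1* tm1Mtb were set beside wild-type embryos. In the *Pax3* line, labelled mixed and kept as a closed colony with CBA/Ca, 101 and C3H/He ancestry, embryos homozygous for *Pax3* Sp2h (Splotch) were set beside wild-type embryos. Embryos of each line came from crosses between heterozygotes, and no embryo was treated. The study asked whether the loss of *Carm1*, an arginine methyltransferase, acts on heart development through *Pax3*, a transcription factor of the neural crest, so the effects in both lines were compared.

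Macrophages take up and digest dying cells, microbes and debris. In the embryo they arise from the yolk sac and later from the fetal liver, where they surround maturing red cells and engulf the expelled nuclei. The receptor for colony stimulating factor 1, encoded by *Csf1r*, sustains most macrophages, and many of them make complement component C1q. *Marco* encodes a class A scavenger receptor that binds bacteria and particles and is found on some macrophages only. *Cd5l* encodes a secreted protein of tissue macrophages that binds lipids and cell debris, and *Timd4* a receptor for phosphatidylserine on dying cells. Both are known from resident macrophages of the liver and other organs.

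Library totals lay between 17183344 and 23518692 counts. *Carm1* fell to a mean of 73.1 ± 3.47 CPM in *Carm1* null embryos against 146 ± 6.97 in their wild types (SD, n = 3 each), and *Pax3* to 20.5 ± 2.34 CPM in *Pax3* null embryos against 27.8 ± 3.02. CPM relates the counts of a gene to those of 1000000 counts of its library, with library sizes scaled by the TMM method of edgeR over the 12 libraries. The remaining transcript of both genes was counted over all exons, so these levels do not measure the deleted part. *Carm1* wild-type replicate 3, *Pax3* null replicate 3 and *Pax3* wild-type replicates 2 and 3 held Y-linked counts. Every one of the 10 macrophage genes had at least 3 counts in every library. Other genes of liver macrophages were barely present: *Vsig4*, *Clec4f*, *Cd163* and *Spic* had group means of at most 0.440 CPM and were too low to test, so the liver macrophage label rests on few transcripts here. In the *Carm1* line *Spic* was at 0.0569 CPM in nulls against 0.440 CPM in wild types, and *Cd163* at 0.403 against 0.0838 CPM. Both were without overlap and in opposite directions, whereas *Vsig4* and *Clec4f* overlapped.

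*Marco* lies on chromosome 1 (GRCm38, 120474538 to 120505024, minus strand, ENSMUSG00000026390) and *Cd5l* on chromosome 3 (87357881 to 87371073, plus strand, ENSMUSG00000015854). The 250 bases before the start of each, which RefSeq gives on GRCm38.p6, are shown because these were the 2 members that were lowest in *Carm1* null embryos relative to wild type. The capitals mark the letters GAGGAAG on either strand (CTTCCTC when read on the other strand), the core of sites for PU.1, the transcription factor that directs macrophage development.
Marco, chr1:120505025-120505274, minus strand: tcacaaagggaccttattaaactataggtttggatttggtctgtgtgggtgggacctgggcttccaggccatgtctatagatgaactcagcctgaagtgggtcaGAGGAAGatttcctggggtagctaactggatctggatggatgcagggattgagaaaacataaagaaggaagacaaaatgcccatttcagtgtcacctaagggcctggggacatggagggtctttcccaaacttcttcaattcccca
Cd5l, chr3:87357631-87357880, plus strand: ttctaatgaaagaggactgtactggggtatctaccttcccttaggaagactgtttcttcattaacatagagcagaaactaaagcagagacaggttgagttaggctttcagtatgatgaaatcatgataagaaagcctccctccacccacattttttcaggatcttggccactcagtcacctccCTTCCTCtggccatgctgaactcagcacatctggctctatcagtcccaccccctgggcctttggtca
The match began 146 bases before the start of *Marco* and 67 bases before that of *Cd5l*. Of the 8 members with a RefSeq promoter, 4 held GAGGAAG (*Marco*, *Cd5l*, *C1qc* and *Mrc1*), against 10.6% of 32851 promoters. The longer GAGGAAGT, which contains it, was found in *C1qc* alone and in 2.44% of all. The DR4 element, a direct repeat of AGGTCA bound by LXR, a sterol-sensing regulator of macrophages, stood in no member and in 0.0152% of all promoters. Such matches are a description of letters and not of binding.

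*Marco* was almost absent from *Carm1* null embryos. Its counts were 6, 9 and 6 in the *Carm1* null embryos, and 55, 72 and 61 in wild types. The exact Poisson 95% interval of a count of 6 ran from 2.20 to 13.1 and that of 55 from 41.4 to 71.6, which covers counting error only. On the CPM scale the null embryos lay at 0.334, 0.511 and 0.357, the wild-type embryos at 3.30, 3.14 and 3.01, so that the groups were far apart and each was tight. The fitted log2 fold change was -2.95 ± 0.32 (SE), or 7.73-fold lower, and it lay between -3.16 and -2.83 in all 14 alternatives that gave a value. In bulk RNA from whole embryos, fewer cells of a type and less RNA per cell cannot be told apart.

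In the *Pax3* line, whose values did not choose *Marco*, the null embryos lay at 0.660, 0.492 and 0.502 CPM, the wild-type embryos at 0.774, 0.686 and 0.809. Every null library was below every wild-type library, but the difference was small. The log2 fold change was -0.45 ± 0.37 (SE), with an FDR adjusted *P* of 0.41 by edgeR. The 4 group means of *Marco* ran from 3.15 CPM in *Carm1* wild types over 0.756 in *Pax3* wild types and 0.552 in *Pax3* nulls to 0.400 in *Carm1* nulls. The libraries of both null groups overlapped, whereas the other neighbours in this order did not.

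**Figure D1:**
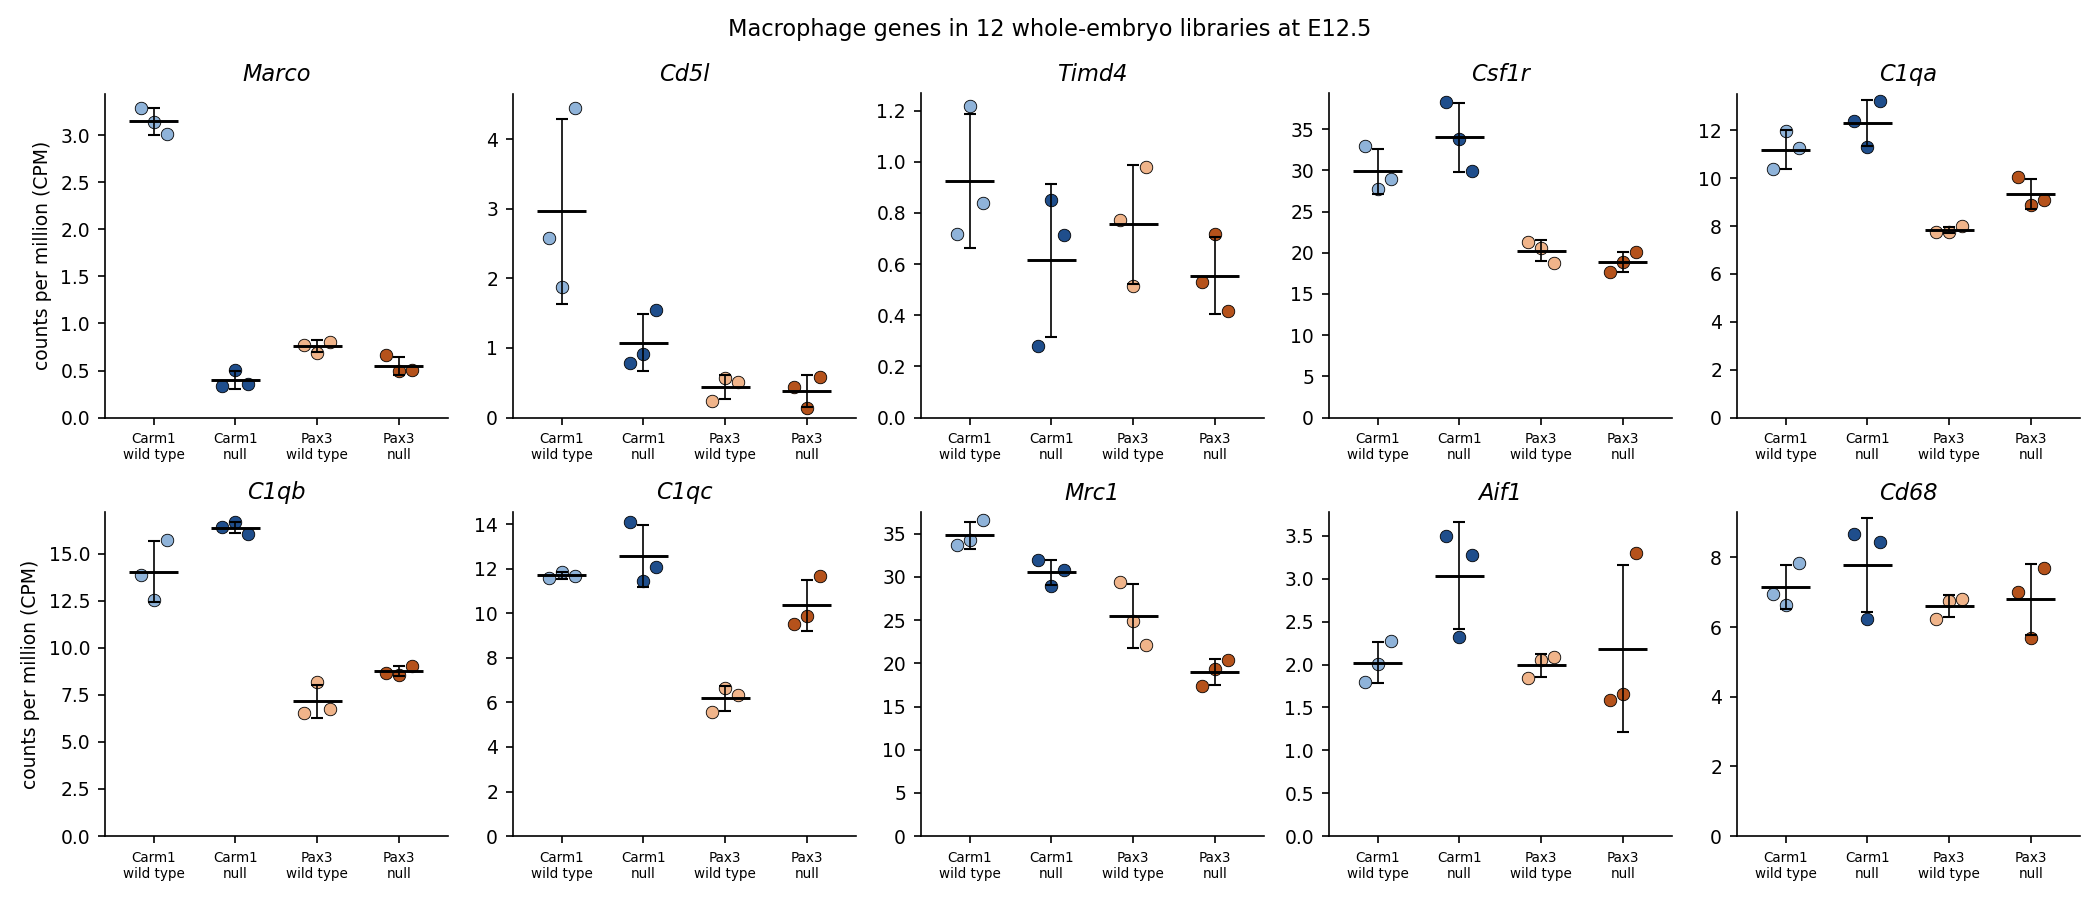
CPM (vertical axes, from 0) of the 10 macrophage genes in 12 libraries by group (horizontal axes), with 1 point per embryo, the mean as a bar and the SD as whiskers. *Marco* stood at 3.01 to 3.30 CPM in *Carm1* wild types and at 0.334 to 0.809 CPM in the other 9 libraries, while *Csf1r* and *Cd68* overlapped between null and wild type in both lines.

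*Cd5l* also fell in *Carm1* null embryos. It had 14, 16 and 26 counts in the null libraries and 43, 43 and 90 in the wild types, which corresponds to 0.778, 0.908 and 1.55 CPM against 2.58, 1.87 and 4.44 CPM. The groups did not overlap, with wild-type replicate 3 well above its group. The log2 fold change was -1.46 ± 0.32 (SE), or 2.75-fold lower, with an FDR adjusted *P* of 0.0025 by edgeR. *Cd5l* was the only one of the 9 members tested in this line to pass the threshold of 0.05, where 13.3% of 15811 genes passed it (5.49% higher and 7.83% lower). Once length and GC content of transcripts were fitted as offsets, the direction of calls over all genes turned from 868 higher and 1238 lower to 1870 higher and 1280 lower, while *Cd5l* stayed lower and called in all 15 alternatives. Without wild-type replicate 3, the only library of the *Carm1* line with Y-linked counts, its log2 fold change was -1.03.

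In *Pax3* null embryos *Cd5l* had 10, 3 and 14 counts against 5, 10 and 12 in the wild types. The groups overlapped, and the log2 fold change of -0.16 ± 0.51 (SE) did not pass the test (FDR adjusted *P* = 0.86 by edgeR). The difference between the effects of both mutations on *Cd5l*, -1.29 ± 0.65 on the log2 scale, did not pass it either (FDR adjusted *P* = 0.17 by edgeR), so its fall was not shown to differ between the lines. At 3 to 14 counts per library the *Pax3* line gave little precision for this gene.

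*Timd4* was scarce in every group, with 5, 15 and 12 counts in *Carm1* nulls, 12, 28 and 17 in their wild types, 12, 16 and 10 in *Pax3* nulls and 16, 9 and 23 in theirs. The libraries of null and wild type overlapped in both lines. The log2 fold changes were -0.62 ± 0.41 (SE) in the *Carm1* line and -0.47 ± 0.39 in the *Pax3* line, with FDR adjusted *P* values of 0.36 and 0.41 by edgeR.

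*Csf1r* did not pass the test in either line. The *Carm1* null libraries lay at 38.3, 33.9 and 29.9 CPM and their wild types at 33.0, 27.8 and 29.0 CPM. The log2 fold change was 0.19 ± 0.08 (SE; FDR adjusted *P* = 0.12 by edgeR), higher in all 15 alternatives and past the threshold in 4 of them. In the *Pax3* line the null libraries at 17.7, 18.9 and 20.1 CPM overlapped the wild types at 21.3, 20.6 and 18.8 CPM (log2 fold change -0.09 ± 0.09, FDR adjusted *P* = 0.49 by edgeR).

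The ratio of 2 genes within a library does not depend on the library size. These ratios were chosen after the values had been seen, and with 3 libraries against 3 an exact permutation test cannot go below 0.1, so they are given without a test. Per 100 counts of *Csf1r*, *Marco* had 0.871, 1.51 and 1.19 counts in *Carm1* null libraries and 10, 11.3 and 10.4 in their wild types. The corresponding values were 3.74, 2.61 and 2.49 in *Pax3* nulls and 3.63, 3.32 and 4.30 in *Pax3* wild types. *Marco* was thus low relative to *Csf1r* in each *Carm1* null library, and in the *Pax3* line the groups overlapped. *Cd5l* per 100 counts of *Csf1r* was 2.03, 2.68 and 5.18 in *Carm1* nulls against 7.82, 6.75 and 15.3, again without overlap.

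**Figure D2:**
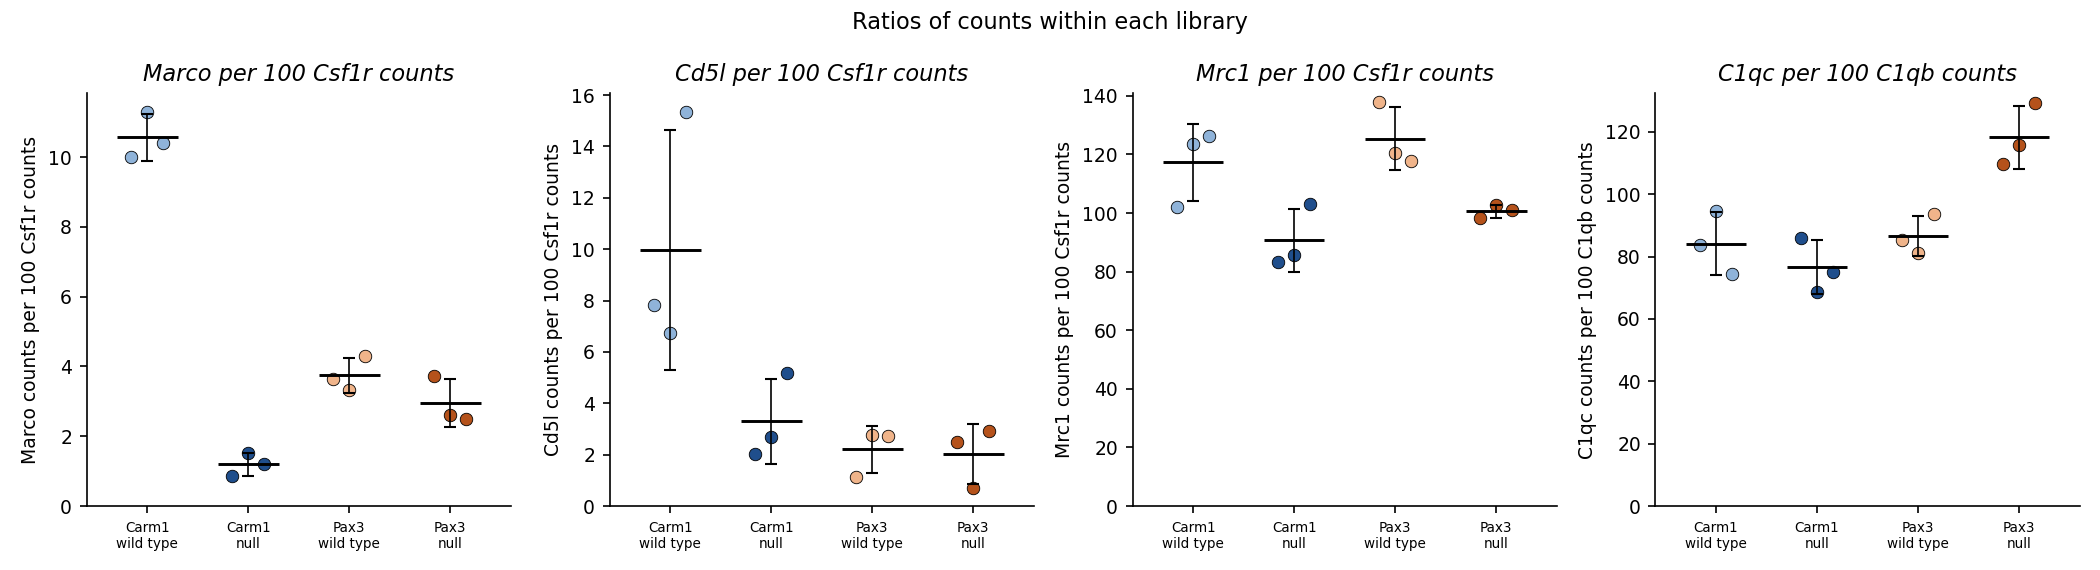
Counts of 1 gene per 100 counts of another in the same library (vertical axes, from 0), for 3 libraries in each of 4 groups, with the mean as a bar and the SD as whiskers. *Marco* per 100 *Csf1r* counts averaged 10.6 in *Carm1* wild types and 1.19 in *Carm1* nulls, and *C1qc* per 100 *C1qb* counts was highest in *Pax3* nulls, at 110 to 129.

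C1q, the recognition part of the first complement component, is built from the A, B and C chains, whose genes lie side by side on the minus strand of chromosome 4 (GRCm38): *C1qb* at 136880129 to 136886187, *C1qc* at 136889804 to 136893065 and *C1qa* at 136895917 to 136898803. In the *Carm1* line none of the 3 passed the test. *C1qa* stood at 12.4, 11.3 and 13.2 CPM in nulls and at 10.4, 11.98 and 11.3 CPM in wild types. *C1qb* stood at 16.4, 16.7 and 16.1 CPM against 13.8, 12.5 and 15.7 CPM, just without overlap. *C1qc* stood at 14.1, 11.5 and 12.1 CPM against 11.6, 11.9 and 11.7 CPM. The log2 fold changes were 0.13, 0.22 and 0.10 for *C1qa*, *C1qb* and *C1qc*, with FDR adjusted *P* values of 0.49, 0.13 and 0.60 by edgeR. For *C1qb* 3 of 15 alternatives put the difference past the threshold.

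In *Pax3* null embryos *C1qc* rose. The null libraries had 9.51, 9.89 and 11.7 CPM and the wild types 5.56, 6.63 and 6.34 CPM, so the groups were well apart. The log2 fold change was 0.76 ± 0.13 (SE), or 1.69-fold higher, with an FDR adjusted *P* of 7.5e-05 by edgeR. Together with *Mrc1* it was 1 of 2 members called among 10, where 24.5% of 15724 genes were called in this line (14% higher and 10.5% lower), so the share called among the members lay near that of all genes. *C1qc* stayed called in all 15 alternatives, with log2 fold changes from 0.53 to 0.84.

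The other chains did not pass the test. *C1qb* lay at 8.67, 8.55 and 9.04 CPM in *Pax3* nulls and at 6.53, 8.17 and 6.77 CPM in wild types, and *C1qa* at 10.04, 8.86 and 9.08 CPM against 7.74, 7.77 and 8.0 CPM. Both were without overlap, as were 5 of the 10 members and 39.9% of all genes tested in this line. Their log2 fold changes of 0.31 ± 0.12 and 0.26 ± 0.12 (SE) had FDR adjusted *P* values of 0.073 and 0.11 by edgeR, and with length and GC offsets they turned to -0.01 and -0.10. Per 100 counts of *C1qb*, *C1qc* had 110, 116 and 129 counts in *Pax3* nulls and 85.2, 81.1 and 93.7 in wild types, whereas it had 86.1, 68.7 and 75.2 against 83.6, 94.4 and 74.3 in the *Carm1* line. *C1qc* was the only one of 9 members whose effect differed between the lines, where 19.1% of 16292 genes did. The *Carm1* null effect was lower by 0.64 ± 0.16 (SE) on the log2 scale (FDR adjusted *P* = 0.0044 by edgeR), and with length and GC offsets the adjusted *P* was 0.058. *Csf1r*, which differed by 0.29 (FDR adjusted *P* = 0.11 by edgeR), was called with those offsets, at 0.35 (FDR adjusted *P* = 0.038 by edgeR).

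C1q circulates bound to the proteases C1r and C1s, made by other cells as well. Of *C1ra*, *C1s1* and *Serping1*, only *C1s1* was called, lower in *Carm1* nulls (2.99 ± 0.666 against 4.87 ± 0.534 CPM, log2 fold change -0.70, FDR adjusted *P* = 0.012 by edgeR), and none of the 3 was called in the *Pax3* line. Over all genes 13.3% were called in the *Carm1* line and 24.5% in the *Pax3* line.

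*Mrc1*, the mannose receptor of tissue macrophages and some endothelial cells, fell in *Pax3* null embryos. The null libraries stood at 17.3, 19.4 and 20.3 CPM and the wild types at 29.4, 24.9 and 22.2 CPM, without overlap. The log2 fold change was -0.41 ± 0.10 (SE), with an FDR adjusted *P* of 0.0028 by edgeR, and it was called in all 15 alternatives. In the *Carm1* line *Mrc1* was at 31.9, 29.0 and 30.8 CPM in nulls and at 33.7, 34.2 and 36.6 CPM in wild types. These groups did not overlap either, but the log2 fold change of -0.19 ± 0.07 (SE) missed the threshold (FDR adjusted *P* = 0.062 by edgeR). The difference between both effects, 0.23 ± 0.12, was not called (FDR adjusted *P* = 0.19 by edgeR).

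*Aif1*, an actin-binding protein used to stain macrophages and microglia, was at 3.50, 2.33 and 3.27 CPM in *Carm1* nulls and at 1.80, 2.004 and 2.27 CPM in wild types. The groups were just apart, and the log2 fold change of 0.58 ± 0.23 (SE) did not pass the test (FDR adjusted *P* = 0.099 by edgeR). In *Pax3* nulls the libraries at 1.58, 1.66 and 3.31 CPM spanned the wild types at 1.84, 2.06 and 2.09 CPM, and the log2 fold change of 0.15 ± 0.26 (SE) turned to -0.29 without null replicate 3. *Cd68*, a lysosomal glycoprotein of phagocytes, overlapped between null and wild type in both lines, with log2 fold changes of 0.13 ± 0.14 and 0.05 ± 0.14 (SE) and FDR adjusted *P* values of 0.62 and 0.83 by edgeR. In the *Carm1* line 4 of the 9 members tested had groups without overlap, against 30% of all genes, and the median log2 fold change of the 9 was 0.13 against 0.0014 over all genes.

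**Figure D3:**
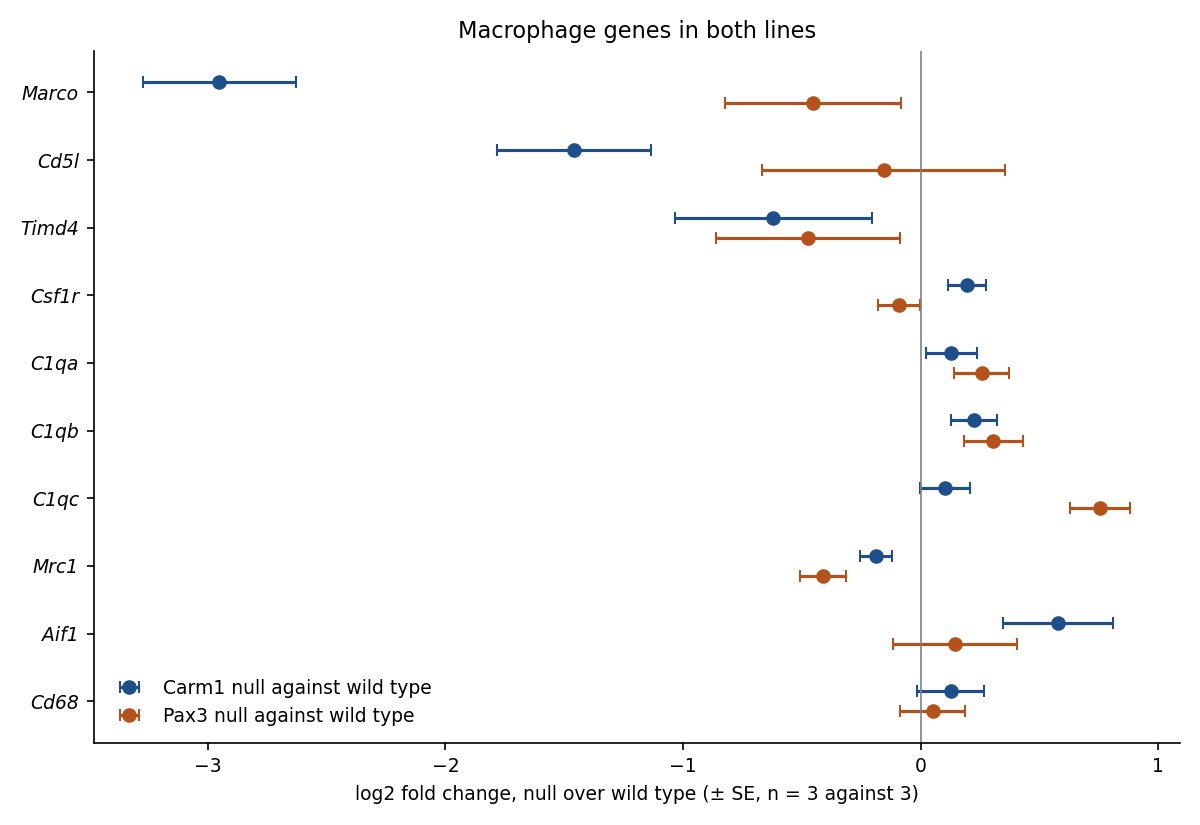
Log2 fold change of null over wild type (horizontal axis, points, with the SE as whiskers, 3 libraries against 3) for 10 macrophage genes in the *Carm1* line (blue) and the *Pax3* line (orange). *Marco* at -2.95 and *Cd5l* at -1.46 stand to the left in the *Carm1* line, and *C1qc* at 0.76 stands to the right in the *Pax3* line.

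Levels of different genes were compared as CPM per kilobase of exon. In *Carm1* wild types *C1qb* was highest at 12.9 ± 1.48 (SD, n = 3), followed by *C1qa* at 10.8 ± 0.778, *C1qc* at 6.06 ± 0.0743, *Cd68* at 5.68 ± 0.504, *Mrc1* at 5.47 ± 0.240 and *Csf1r* at 5.18 ± 0.471. In this order *C1qc* overlapped with *Cd68*, *Cd68* with *Mrc1* and *Mrc1* with *Csf1r*, and the other neighbours were apart. *Marco*, *Cd5l* and *Aif1* formed a lower set, at 1.63, 1.46 and 1.32, in which neighbours overlapped, and *Timd4* was last at 0.426 ± 0.1204. In *Carm1* nulls *Marco* was the last of the 10, at 0.208 ± 0.0499, though its libraries overlapped with those of *Timd4*.

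The wild types of the 2 lines also differed in these genes. For 7 of the 10 members every *Carm1* wild type was above every *Pax3* wild type, which held for 25.7% of the genes. *Cd5l* was 6.72-fold higher (2.96 ± 1.33 against 0.441 ± 0.175 CPM) and *Marco* 4.16-fold higher (3.15 ± 0.143 against 0.756 ± 0.0632 CPM). *C1qb*, *C1qc*, *Csf1r*, *C1qa* and *Mrc1* were 1.96-, 1.89-, 1.48-, 1.43- and 1.37-fold higher. *Aif1*, *Cd68* and *Timd4* overlapped. Line, strain and colony cannot be told apart, and no test was made between the wild types.

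Other genes of macrophages were taken from lists that were chosen with earlier results of these data known. Counts of calls in these lists are therefore a description and no independent test. Of 24 further pan-macrophage genes tested in the *Carm1* line, 8 were higher and 1 was lower, where 5.49% and 7.83% of all genes were, and their median log2 fold change was 0.26. *Pld4*, an endosomal nuclease, rose from 3.57 ± 0.538 to 7.09 ± 1.25 CPM (2.004-fold, with an FDR adjusted *P* of 6.9e-05 by edgeR). *Fcgr1*, a receptor for immunoglobulin G, rose from 2.41 ± 0.210 to 4.18 ± 0.601 CPM, and *Ctss*, a lysosomal protease, from 7.99 ± 1.22 to 11.5 ± 1.34 CPM. *Laptm5*, *Cd53*, *Fcgr3*, *Ms4a7* and *Mpeg1* were the other genes that rose, by log2 fold changes of 0.33, 0.68, 0.59, 1.03 and 0.28. *Adgre1*, which encodes the macrophage antigen F4/80, fell instead, with 7.09 ± 0.475 CPM against 9.47 ± 0.260 CPM (log2 fold change -0.42, and 0.021 for the FDR adjusted *P* of edgeR). This call was lost with DESeq2 and without null replicate 1, null replicate 3 or wild-type replicate 2. The number of genes called higher was 3 without *Carm1* null replicate 1 and 4 without wild-type replicate 2, and at most 11 in other alternatives. In the *Pax3* line *Laptm5* alone of the 24 was called, lower by 0.27 on the log2 scale, where 24.5% of all genes were called. This call held in 9 of 15 alternatives and was lost with DESeq2, with the stricter count filter and without null replicate 1 or 3 or wild-type replicate 1 or 2.

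The counts of calls that follow stand beside 13.3% of all genes called in the *Carm1* line (5.49% higher and 7.83% lower) and 24.5% in the *Pax3* line. Of the 4 other class A scavenger receptors 1 was called higher and 1 lower in *Carm1* nulls. *Colec12* was slightly higher (85.5 ± 0.957 against 75.2 ± 1.71 CPM) and *Scara5* lower (7.95 ± 1.08 against 10.4 ± 0.471 CPM, log2 fold change -0.39), while *Msr1* and *Scara3* did not pass the test. None of the 4 was called in the *Pax3* line. Of 14 further genes of the CSF1 receptor pathway, *Plcg2*, a signalling phospholipase, was called higher in *Carm1* nulls, by 0.38 on the log2 scale. *Cebpa* and *Runx1*, transcription factors of myeloid and blood progenitors, were called lower, by 0.45 and 0.40. Of these 14 genes, 8 were higher in nulls, called or not, and the median log2 fold change was 0.11. The calls of *Scara5*, *Plcg2* and *Cebpa* held in 9 of 15 alternatives each. All 3 were lost with DESeq2, with the term for Y-linked counts and without null replicate 1 or wild-type replicate 2 or 3, that of *Scara5* also without null replicate 3, and those of *Plcg2* and *Cebpa* without null replicate 2. *Runx1* was also called lower in *Pax3* nulls, by 0.30, and was the only gene called of 13 tested there. With length and GC offsets it was lower by 0.19 (FDR adjusted *P* = 0.18 by edgeR), and its call was also lost without null replicate 1 or 2 or wild-type replicate 1. Of the 6 further liver macrophage genes tested in the *Carm1* line only *Id3* was called, higher by 0.13. *Siglec1*, at 2.34 ± 0.297 CPM in nulls and 1.33 ± 0.616 CPM in wild types, just missed the threshold (FDR adjusted *P* = 0.055 by edgeR). Of 5 tested in the *Pax3* line 3 were called, where 24.5% of all genes were. In that line *Id3* was higher by 0.52, and *Hmox1*, which degrades heme, and *Vcam1*, which binds erythroid cells, were lower by 0.31 and 0.21, though *Vcam1* was not called with length and GC offsets (adjusted *P* = 0.59 by edgeR). Group means were 118 to 175 CPM for *Id3* and 66.8 to 80.5 CPM for *Vcam1*, far above the 0.387 to 2.96 CPM of *Cd5l*. These 2 genes are therefore not read as measures of liver macrophages. Of 6 microglia genes 5 were tested in the *Carm1* line and 6 in the *Pax3* line, and none was called. *Siglech*, too low to test in the *Carm1* line (0.113 ± 0.150 CPM in nulls against 0.629 ± 0.172 CPM), was called in the difference between the lines (-2.43 on the log2 scale, FDR adjusted *P* = 0.041 by edgeR). That call held in 10 of 18 alternatives and was lost when any of 8 libraries was left out, and the gene is named after its values were seen.

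**Figure D4:**
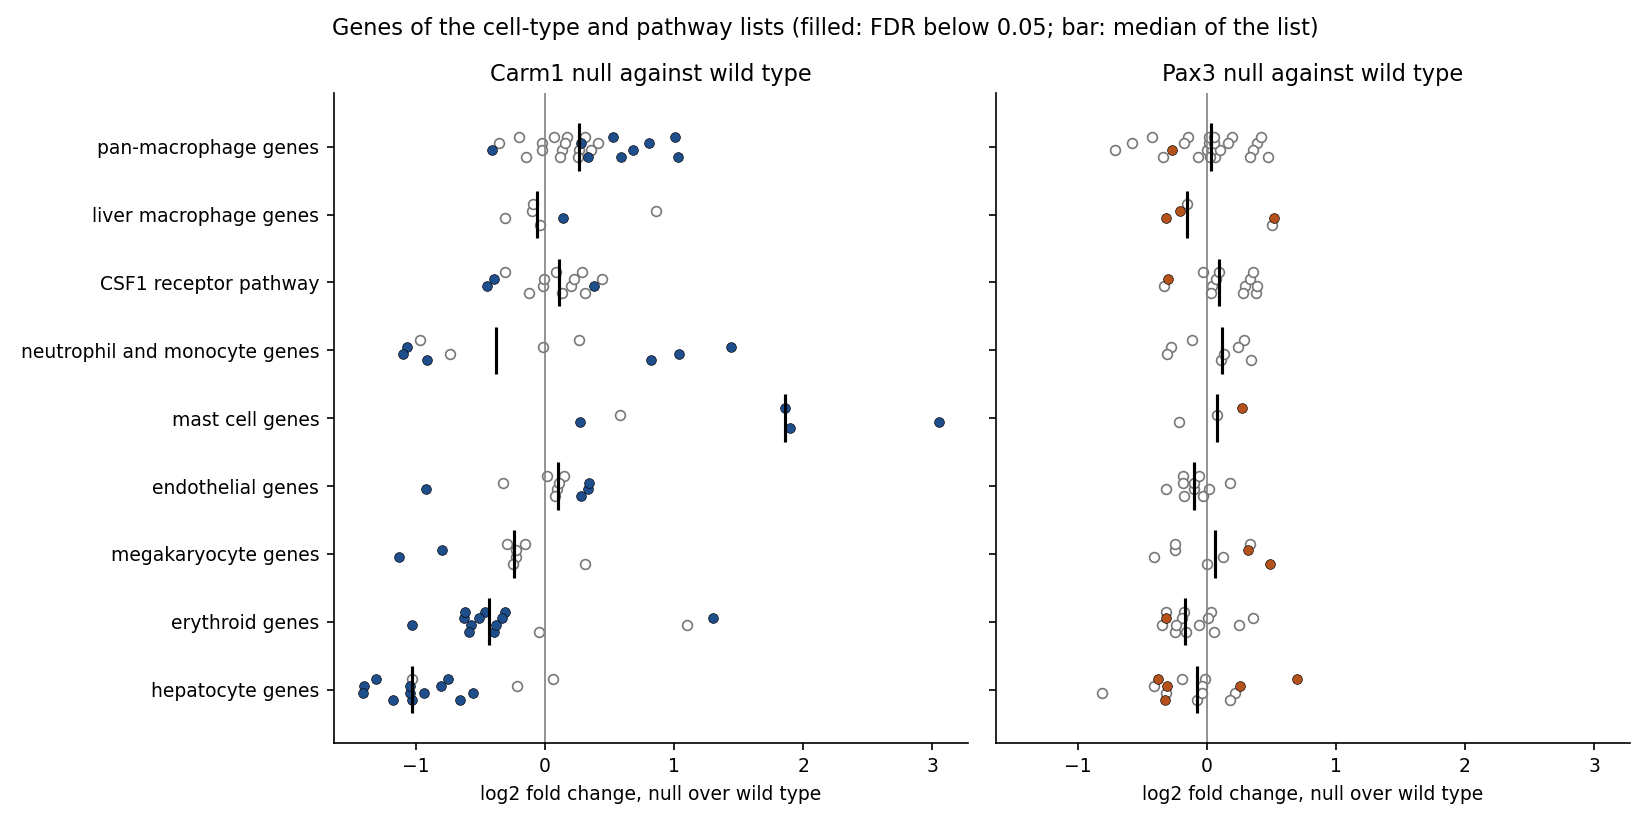
Log2 fold change of null over wild type (horizontal axes) for each tested gene of 9 lists, the 10 members left out, in the *Carm1* line (left) and the *Pax3* line (right). Filled points passed the FDR threshold of 0.05 and the black bar is the median of the list. In the *Carm1* line 8 of 9 called pan-macrophage genes lie to the right of 0 and all 12 called hepatocyte genes to the left.

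Markers of other cells moved in the same *Carm1* null embryos in which *Marco* and *Cd5l* were low. Over all genes tested in the *Carm1* line, 7.83% were called lower and 5.49% higher. Of 15 hepatocyte genes, 12 were called lower, with a median log2 fold change of -1.03, and their summed level was 1001 to 1205 CPM in nulls and 1785 to 2172 CPM in wild types. Of 14 erythroid genes 11 were lower and 1 was higher, but the summed levels overlapped (8047 to 9366 against 5954 to 10120 CPM). In 1 fit of 12 libraries 5 of them were lower and 2 higher, and no erythroid gene was called higher without null replicate 1, 2 or 3 or wild-type replicate 2. Of 5 mast cell genes 4 were higher, with a summed level of 44.7 to 49.6 CPM in nulls and 28.4 to 32.4 CPM in wild types. *Gata2* was 1 of those 4 and most of that sum, with means of 29.0 CPM in nulls and 24.1 CPM in wild types. The mast cell gene *Cpa3* had 9.59 and 2.62 CPM. *Gata2* is therefore not read as a measure of mast cells. Of 8 megakaryocyte genes 2 were lower, and of 10 endothelial genes 3 were higher and 1 was lower. Among 10 neutrophil and monocyte genes *Mpo*, *Ccr2* and *Plac8* rose, by 1.03, 1.44 and 0.82 on the log2 scale, and *Ltf* and 2 other granule genes fell, *Ltf* by 1.10, while the summed levels overlapped (66.4 to 76.8 against 54.3 to 82.9 CPM). Of 5 lymphocyte genes 1 could be tested and was not called. In the *Pax3* line 24.5% of all genes were called, 14% higher and 10.5% lower. Of 15 hepatocyte genes 2 were higher and 3 lower there, with a median log2 fold change of -0.074. Their summed levels were 1083 to 1177 CPM in nulls and 1271 to 1557 CPM in wild types. The largest parts of that sum were *Afp*, with means of 486 against 636 CPM, and *Alb*, with 245 against 326 CPM. *Afp* was called in that line and *Alb* was not. Of 14 erythroid genes 1 was lower. The megakaryocyte genes *Pf4* and *Gp1bb* and the mast cell gene *Gata2* were called higher there, and all 3 calls were lost with length and GC offsets, where *Pf4* went from 0.32 to 0.064 and *Gp1bb* from 0.49 to 0.22 on the log2 scale. The part of these cells in the values of *Marco* and *Cd5l* was not tested.

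The genes whose profile was most like that of *Marco* were ranked by Pearson's r over the 12 libraries, on log2 CPM after the mean of each line was taken off, among 14836 genes. They were *Carm1* itself (r = 0.971), the amino acid transporter gene *Slc43a1* (0.967), the ketone body enzyme gene *Bdh1* (0.965), the glucuronosyltransferase gene *Ugt2b34* (0.964) and *Cpb2* (0.961), a plasma carboxypeptidase made in liver. *Ugt2b34* stood at 3.03 CPM in *Carm1* nulls against 11.7 CPM in wild types, and *Cpb2* at 1.07 against 3.797 CPM. Among the 8 other members with a mean of at least 1 CPM, which leaves out *Timd4*, *Cd5l* was closest to *Marco* (r = 0.659), followed by *Mrc1* (0.410), and *Csf1r* had r = -0.480. The genes most like *Csf1r* were *2610028E06Rik*, *Itga3*, *Rcan3*, *Zfp189* and *Ezr* (r from 0.886 to 0.935). The points are 4 groups of 3 libraries, so these values describe the group means as much as single embryos, and they carry no test. *Marco* was chosen by its fall in *Carm1* nulls, and its profile is mostly that step. Its ranking, and its r with *Cd5l*, thus re-use the values that chose it and give that fall no support.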

How the data were processed

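The authors isolated polyadenylated RNA from homogenized whole E12.5 embryos, kept samples of high integrity, and had paired-end libraries sequenced on a NovaSeq. Per the submitters' processing notes, reads were aligned with STAR to mm10 and counted with featureCounts; versions, strand setting and the handling of multiply mapped reads are not given in the sources used here. The deposited values are raw counts per gene, with no normalization. Groups came from the sample labels. Each line was tested on its own with edgeR 4.0.16 (R 4.3.3): TMM, filterByExpr, robust quasi-likelihood test, Benjamini-Hochberg adjustment over all genes tested, threshold 0.05. The difference between the lines was the interaction in 1 fit of 12 libraries. The 10 members and the gene lists were chosen with earlier results of these data known. Named genes were the members, list genes past the threshold (at most 4 per list and line) and the 5 genes most like *Marco* and *Csf1r*; *Cd53*, *Fcgr3*, *Ms4a7*, *Mpeg1*, *Adgre1* and *Msr1* were added after their values were seen, and list genes on which no result turned are not named. *Adgre1* and *C1s1* are listed under older symbols, and *Ly6g* was not analysed here. Exon lengths and coordinates came from the GENCODE annotation of GRCm38, promoters from RefSeq. The fits were first tested on simulated data. Alternatives were DESeq2 1.42.0, other normalizations and filters, the replicate number as a block, a term for Y-linked counts, length and GC offsets, 1 fit of 12 libraries and leaving out each library. Nothing in the labels ties equal replicate numbers of null and wild type to a litter or day. The deviations of same-numbered libraries correlated at -0.046, -0.018 and -0.029 in the *Carm1* line and 0.17, -0.18 and 0.28 in the *Pax3* line, so the numbers were not taken to pair embryos.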

Additional observations from a re-analysis of the deposited data

Results flagged for a closer look

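These results were singled out because the effect of the null genotype differed between the lines in the edgeR test of the difference itself (3 libraries in each of 4 groups). Differences are the *Carm1* null effect minus the *Pax3* null effect, on the log2 scale. Of the 10 members, *Marco* was not tested, and *C1qc* alone of the other 9 differed, by -0.64 ± 0.161 (SE; FDR adjusted *P* = 0.0044). Among the other pan-macrophage genes *Pld4* differed by 0.99, *Laptm5* by 0.61, *Fcgr1* by 1.16, *Ms4a7* by 1.61 and *Msr1* by 1.13, and *Adgre1* by -0.60. Of the CSF1 receptor pathway *Cebpa* differed by -0.77 and *Plcg2* by 0.72. The scavenger receptor gene *Colec12* differed by 0.36, *Id3* by -0.37, *C1s1* by -0.76, the microglia gene *Siglech* by -2.43, the megakaryocyte gene *Pf4* by -1.10, *Mpo* by 1.32 and *Ccr2* by 1.75. *Msr1* was past the threshold in 8 of 20 alternatives only, *Siglech* in 10 of 18 and *C1s1* in 14 of 20, and *Msr1* was called in neither line on its own. *Adgre1* was past it in 18 of 20, *Ms4a7* in 18 of 19, and *C1qc* and *Id3* in 19 of 20 each. The other genes named here passed it in every alternative that gave a value.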

How the results depend on the processing

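*Cd5l* in the *Carm1* line and *C1qc* and *Mrc1* in the *Pax3* line kept their direction and call in all 15 alternatives. The number of members called in the *Carm1* line rose from 1 to 2 with no filter on low counts and with the term for Y-linked counts and to 3 with length and GC offsets, by calls of *Csf1r* and *C1qb*, and it lay between 1 and 3 when a library was left out. Over all genes 2106 of 15811 were called in the main fit of this line and 2339 of 19940 without the filter. With the term 2026 of 15811 were called, and with the offsets 3150 of 15683, so calls also rose over all genes with the offsets. For the difference between the lines it lay between 1 and 2 when a library was left out. *Csf1r* was added without *Carm1* null replicate 3 and *Mrc1* without *Pax3* wild-type replicate 3. With length and GC offsets *Csf1r* was called there in place of *C1qc*. The number of all genes called lay between 1224 and 2290 in the *Carm1* line and between 2454 and 4103 in the *Pax3* line when a library was left out. For the difference between the lines that number lay between 2311 and 3390. With length and GC offsets the log2 fold changes in the *Pax3* line turned to -0.10 for *C1qa*, -0.010 for *C1qb*, -0.016 for *Aif1* and -0.16 for *Cd68*, and the differences between the lines to 0.23 for *C1qa* and 0.24 for *C1qb*, and the cause was not tested. With the term for Y-linked counts *Cd5l* turned to 0.17 in the *Pax3* line. Leaving out 1 library moved *Aif1* to between -0.29 and 0.33, *Cd68* to between -0.051 and 0.16 and *Cd5l* to between -0.59 and 0.23 in the *Pax3* line, and the differences between the lines to between -0.17 and 0.021 for *C1qb*, between -0.027 and 0.22 for *Cd68* and between -0.45 and 0.22 for *Timd4*; none of these values was called. DESeq2 gave no adjusted *P* for *Marco*, *Timd4* and *Cd5l* in the *Pax3* line, nor for *Timd4* in the difference, and members with under 10 counts in a library have no value under the stricter filter. With the replicate number as a block 1787 genes were called in the *Carm1* line, 4177 in the *Pax3* line and 3094 in the difference. The block changed no call among the members, while *Mpeg1* and *Id3* in the *Carm1* line and *Msr1* in the difference lost theirs. Equal numbers were not taken to pair the embryos, since nothing in the labels ties them. Among genes of the other lists, calls in the *Carm1* line held in 5 of 15 alternatives for *Id3*, 8 for *Mpeg1*, 9 for *Plcg2*, *Scara5* and *Cebpa*, 11 for *Adgre1* and *Ms4a7*, 12 for *Fcgr3* and 13 for *Ctss* and *Cd53*. They held for *Laptm5* in 9 and for *Runx1* in 11 of 15 in the *Pax3* line. *Marco*, *Timd4* and *Cd5l* rest on 3 to 90 counts per library, which limits their precision.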
